A study of Homo sapiens with 6 samples.

Results

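The outermost 5 Mb of the short arms of chromosomes 1, 2, 3, 5, 6, 7, 8, 9, 10, 11, 12 and 20 held 960 of the 32037 accessible regions found in CCRF-CEM, a long-established cell line from a T-cell acute lymphoblastic leukaemia. Overlapping entries of 6 ATAC-seq peak lists were merged where they shared at least 1 bp, and the merged regions that end before hg19 position 5 Mb on these 12 chromosomes were kept. The 497 regions at 20 to 25 Mb of the same chromosomes, called interior windows here, served as the comparison. Nearest to the limit of the window were chr9:4984537-4985679 on the inner side and chr6:5003725-5004617 outside it, both in all 6 lists. ATAC-seq reads open chromatin through a transposase that cuts accessible DNA and tags it for sequencing. SLFN11-knockout cells were compared with the parent cells they derive from, which the labels call wild-type, and both were given DMSO, the solvent, or 100 nM camptothecin for 2 h or 4 h. Camptothecin holds topoisomerase I in its DNA-bound state, which stalls replication. The 6 groups were knockout DMSO, knockout 2 h, knockout 4 h, parent DMSO, parent 2 h and parent 4 h, each with 1 library. No value therefore has a replicate spread and no test was made between groups. With 1 knockout line, line and genotype cannot be told apart.

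Chromosome arms end in arrays of the TTAGGG repeat, which shelterin proteins bind and protect. Next to them lie subtelomeres, mosaics of duplicated segments that many chromosome ends share, followed by unique sequence that is often rich in genes and early in replication. The 5 Mb window reaches well beyond the duplicated segments, so most of it is distal arm rather than subtelomere in the strict sense. SLFN11 is recruited to stressed replication forks, where it blocks replication and has been linked to opening of chromatin. Reads from repeated sequence can map to several chromosome ends, and no filter for such sequence was applied here. Genes and sequences of the regions were not looked up, since no hg19 genome or annotation was used here.

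Libraries are named by the code in the name of each list, which is also the code in the sample titles. The lists are recorded under other samples in 6 of 6 cases: the list coded DMSO is recorded as 4 h, the list coded 2 h as DMSO and the list coded 4 h as 2 h, in both genotypes. Values under the recorded placement are given for the main comparisons over all 12 ends, though not for every share. Values by chromosome and by Mb are given mostly by code alone and depend on the placement. So do most sets of regions gained or lost. A region is held by a list with at least 1 entry in it, gained when the first list of a comparison holds it and the second does not, and lost in the opposite case. The 3 knockout lists coded DMSO, 2 h and 4 h held 18869, 20441 and 18668 regions on chromosomes 1 to 22 and X, and the parent lists 13883, 23341 and 21390. The parent DMSO list stands apart as the shortest, so the gained and lost shares of each comparison with it over all 12 ends are also given for lists cut to the same length, the 14205 most significant merged peaks. The sets of regions and the values by chromosome and by Mb are given for full lists alone. Intervals of shares are Wilson intervals at 95%, those of log2 ratios come from the numbers gained and lost, and both hold counting error alone.

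Accessible regions were denser at the short-arm ends than in the interior windows. The ends held 16.0 regions per Mb, against 8.28 per Mb in the interior windows, and the regions covered 0.773% of the end sequence, against 0.398% of the interior. On 10 of 12 chromosomes the end held more regions. The exceptions were chromosome 3, with 33 regions at the end and 38 in the interior, and chromosome 10, with 53 and 56. Counts were highest at the ends of chromosomes 1 (136 regions, against 84 in its interior window), 11 (127, against 14) and 20 (107, against 50). The end of chromosome 5 held 88 regions and its interior window 9. Density fell with distance from the end, from 23 regions per Mb in the outermost Mb to 18.3, 15.2, 14.3 and 9.25 in the next ones, the last close to the interior level. Whether gene content moves with these counts was not tested.

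**Figure D1:**
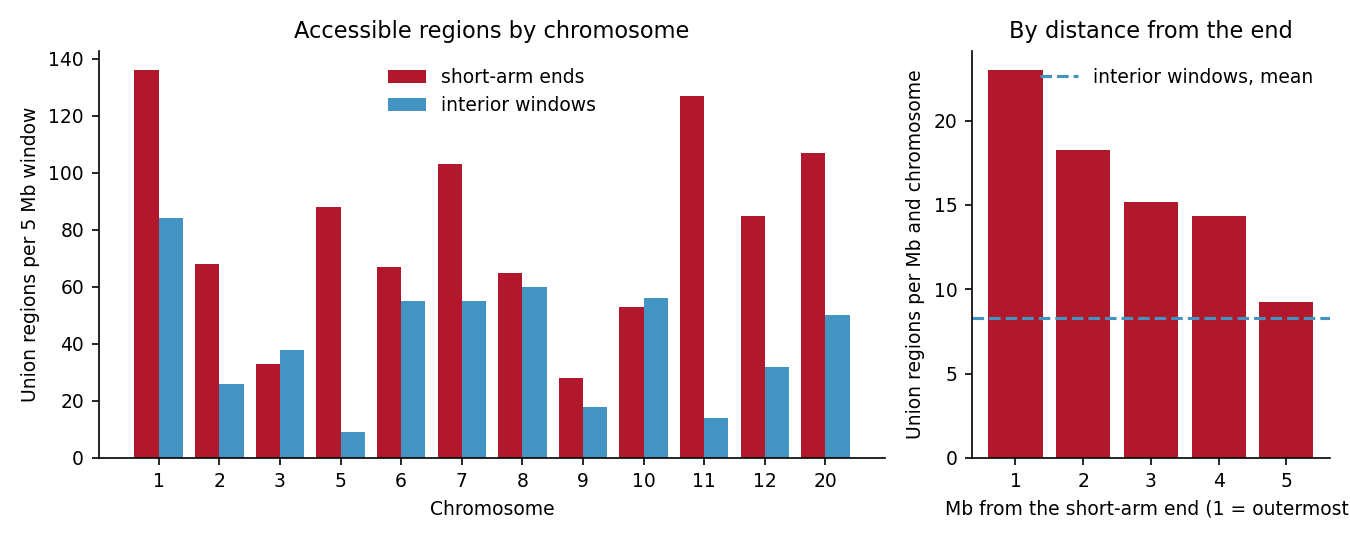
Union regions per 5 Mb window on each of the 12 chromosomes (left; red, short-arm ends; blue, interior windows) and regions per Mb and chromosome by distance from the short-arm end (right; the dashed line is the interior mean of 8.28). The ends exceed the interior windows on every chromosome but 3 and 10, and density falls from 23 in the outermost Mb to 9.25 in the fifth.

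The first regions of chromosomes 1, 5 and 7 lay at the very start of the assembled sequence and were held by all 6 lists. The chromosome 1 region, chr1:10004-10466, had a fold enrichment over local background, as deposited by the authors, of 18.5, 19.9 and 17.6 in the knockout DMSO, 2 h and 4 h lists. In the parent DMSO, 2 h and 4 h lists it was 17.7, 20.3 and 19.0. Each of these values lies above 99.6% of the regions in its own list. On chromosome 5, chr5:10032-11783 was 1752 bp wide, with a fold of 12.8, 12.6 and 13.3 in the knockout lists and 13.1, 13.2 and 13.2 in the parent lists, in the same order. The chromosome 7 region, chr7:10005-10241, varied more, at 13.7, 12.2 and 11.9 in the knockout lists and 11.2, 8.30 and 15.9 in the parent lists.

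These 3 outermost regions thus belong to the strongly enriched part of most lists, with the chromosome 7 region at the 68.0 percentile of the parent 2 h list as the lowest. Chromosome 9 also had an entry next to its start, chr9:10123-10384, but only the knockout 2 h list (3.03-fold) and the parent DMSO list (3.66-fold) held it. Within the outermost 100 kb there were 26 regions on 9 chromosomes. All 6 lists shared 10 of the 26, and 5 were in 1 list alone, against 34.6% and 27.3% of all regions. The knockout DMSO, 2 h and 4 h lists held 15, 21 and 18 of the 26, and the parent lists 15, 15 and 17. In this outermost stretch the parent DMSO and 2 h lists held equal numbers, but 26 regions are too few to set it apart from the rest. Over the whole outermost Mb the parent DMSO list held 115 regions and the parent 2 h list 183.

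On the other chromosomes the first region held by all 6 lists lay deeper. It was chr8:40557-40976 on chromosome 8, chr12:73893-74894 on chromosome 12, and chr10:180636-182265 on chromosome 10. On chromosomes 11, 2, 20 and 6 it was chr11:207240-207918, chr2:264388-265304, chr20:277886-278830 and chr6:371297-372332. Chromosome 9 reached it at chr9:631514-632057 and chromosome 3 only at chr3:2806822-2807146. These depths are positions in hg19, and unassembled sequence at the starts of the arms was not taken into account. The chromosome 3 region had a fold of 8.32, 7.49 and 10.1 in the knockout DMSO, 2 h and 4 h lists and 12.1, 8.75 and 9.33 in the parent lists. These values lie at the 70.5 percentile or higher in each list. By contrast, chr8:40557-40976 had a fold of 4.42, 5.12 and 5.14 in the knockout lists and 5.02, 6.99 and 5.74 in the parent lists, between the 21.3 and 54.6 percentile.

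The highest fold enrichment at the short-arm ends was at 1 site in 6 of 6 lists. This was chr12:2364973-2365236, a 264 bp region with 22.6, 24.0 and 24.1-fold in the knockout DMSO, 2 h and 4 h lists and 26.4, 24.8 and 24.9-fold in the parent lists. It rested on 87 to 106 reads at the summit in each library, a pileup recovered from the deposited fold and p. The widest region in all lists, chr12:860345-862270, spanned 1926 bp on the same arm and had lower fold values, between 4.80 in the parent DMSO list and 8.15 in the parent 4 h list. Other wide regions in all lists were chr6:861979-863705 (1727 bp), chr10:180636-182265 (1630 bp) and chr20:2082488-2083986 (1499 bp). Enrichment and width thus ranked different sites first.

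Regions at the ends resembled those elsewhere in width. Their median width was 400 bp, against 387 bp in the interior windows and 438 bp over all regions. At least 1000 bp was reached by 68 of 960 (7.08%), against 8.05% and 8.64%. The 287 regions in all 6 lists had a median width of 775 bp and the 293 regions in a single list 191 bp. Sharing among lists was lower at the ends than over all regions, with 29.9% in all 6 lists (27.1 to 32.9%) against 34.6% of all regions, and 30.5% in a single list (27.7 to 33.5%) against 27.3%. The interior windows were as little shared, at 29.0% (25.2 to 33.1%) in all lists and 32.6% (28.6 to 36.8%) in a single one. The remaining 380 end regions were in 2 to 5 lists. Over all 15 pairs of lists, the share of regions that only 1 list of the pair held was higher at the ends than over all regions in 15, and higher than in the interior windows in 7. That share ran from 33.9 to 53.4% at the ends and from 29.6 to 47.1% over all regions. The pairs reuse 6 lists and are not independent, and the differences were not tested.

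Among the 6 lists, the parent DMSO list held the fewest end regions. The knockout DMSO, 2 h and 4 h lists held 528, 561 and 508 of the 960. The parent lists held 404, 648 and 631. As a share of each list, the ends made up 2.80, 2.74 and 2.72% of the regions in the knockout lists and 2.91, 2.78 and 2.95% in the parent lists, so the ends followed the length of the lists closely. Local background at the summits, recovered with the pileup, was higher at the ends than in the interior windows in 6 of 6 lists. Its median was 2.82, 2.92 and 2.60 reads at the ends in the knockout lists, against 2.16, 2.33 and 2.13 in the interior. In the parent lists it was 2.39, 3.16 and 3.45 at the ends, against 2.00, 2.70 and 2.73. Its part in the comparisons was not tested. Fewer cells with an open region and less open chromatin per cell cannot be told apart in such bulk libraries.

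**Figure D2:**
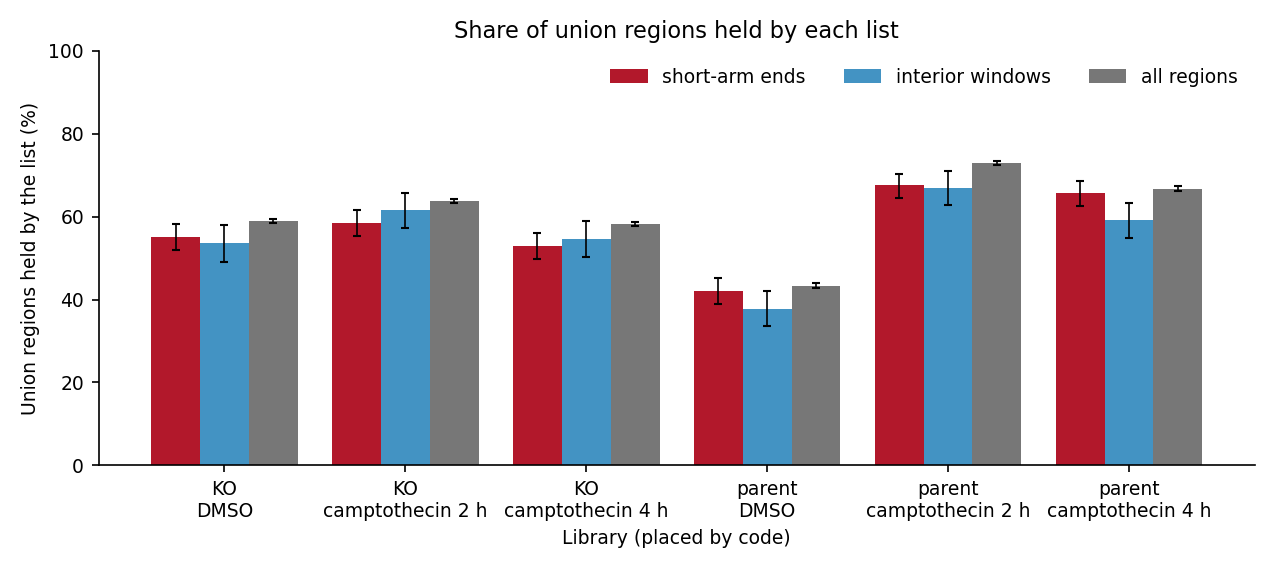
Share of union regions held by each list (percent, 95% Wilson intervals), for the 960 short-arm end regions, the 497 interior regions and all 32037 regions, in knockout (KO) and parent libraries placed by code. The parent DMSO list holds 42.1% of end regions, the lowest of the 6, and the parent 2 h list 67.5%, the highest, and the other 2 sets of regions show the same 2 extremes.

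In parent cells, many more end regions were gained than lost under camptothecin. The 2 h list gained 301 of its 648 regions (46.5%, interval 42.6 to 50.3%), close to the 44.8% gained over all regions. It lacked 57 of the 404 regions in the DMSO list (14.1%, 11.1 to 17.8%), against 7.25% lost over all regions and 6.91% (4.09 to 11.5%) in the interior windows. The 4 h list gained 302 of 631 (47.9%, 44.0 to 51.8%), against 42.2% over all regions, and lacked 75 of 404 (18.6%, 15.1 to 22.6%), against 10.9% over all regions and 13.8% (9.62 to 19.5%) in the interior. Relative to DMSO, the log2 ratio of regions held was 0.68 (0.58 to 0.79) after 2 h, against 0.82 in the interior windows, and 0.64 (0.53 to 0.75) after 4 h, against 0.65. The interval of the gained share thus includes the level of the whole series at 2 h and lies above it at 4 h, whereas the lost share lay above it at both times. The interior windows gained 47.4% (42.1 to 52.8%) at 2 h and 44.9% (39.3 to 50.6%) at 4 h. For both the gained and the lost share, the intervals at the ends and in the interior windows overlapped at each time.

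Lists cut to equal length hold nearly equal numbers of regions over the whole series by construction (log2 ratios of 0.026 at 2 h and 0.029 at 4 h), so only the levels at the ends relative to all regions can be read from them. There, the 2 h list gained 23.7% (19.7 to 28.3%) and lost 29.2% (24.99 to 33.8%), and the 4 h list gained 29.9% (25.6 to 34.6%) and lost 31.4% (27.1 to 36.1%). The log2 ratios then were -0.11 and -0.033, so that the parent DMSO list held slightly more end regions than either camptothecin list. Over all regions, equal lists gained 21.6% at 2 h and 24.3% at 4 h and lost 20.2% and 22.7%, and the interior windows lost 24.5% (18.9 to 31.1%) and 28.7% (22.7 to 35.6%). The interior windows then gained 26.4% (20.7 to 33.1%) at 2 h and 26.0% (20.1 to 32.8%) at 4 h. Under the recorded placement the 2 h list gained 19.3% and lost 21.5% of end regions, and the 4 h list gained 14.1% and lost 46.5%. The log2 ratios were then -0.038 and -0.68, which turns the direction of both. The 4 h and 2 h lists, which involve no DMSO list by code, differed less: the 4 h list gained 122 of its 631 regions (19.3%, 16.4 to 22.6%, against 13.6% over all regions) and lacked 139 of the 648 in the 2 h list (21.5%, 18.5 to 24.8%, against 20.8%). In the interior windows these shares were 16.7% gained and 26.4% lost. By code and in full lists, the log2 ratio of 4 h over 2 h was -0.038 at the ends and -0.18 in the interior windows. The ratio at the ends exceeded that in the interior by 0.14 (0.014 to 0.27, counting error alone), with 1 library per group. This difference was not recomputed for lists of equal length.

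**Figure D3:**
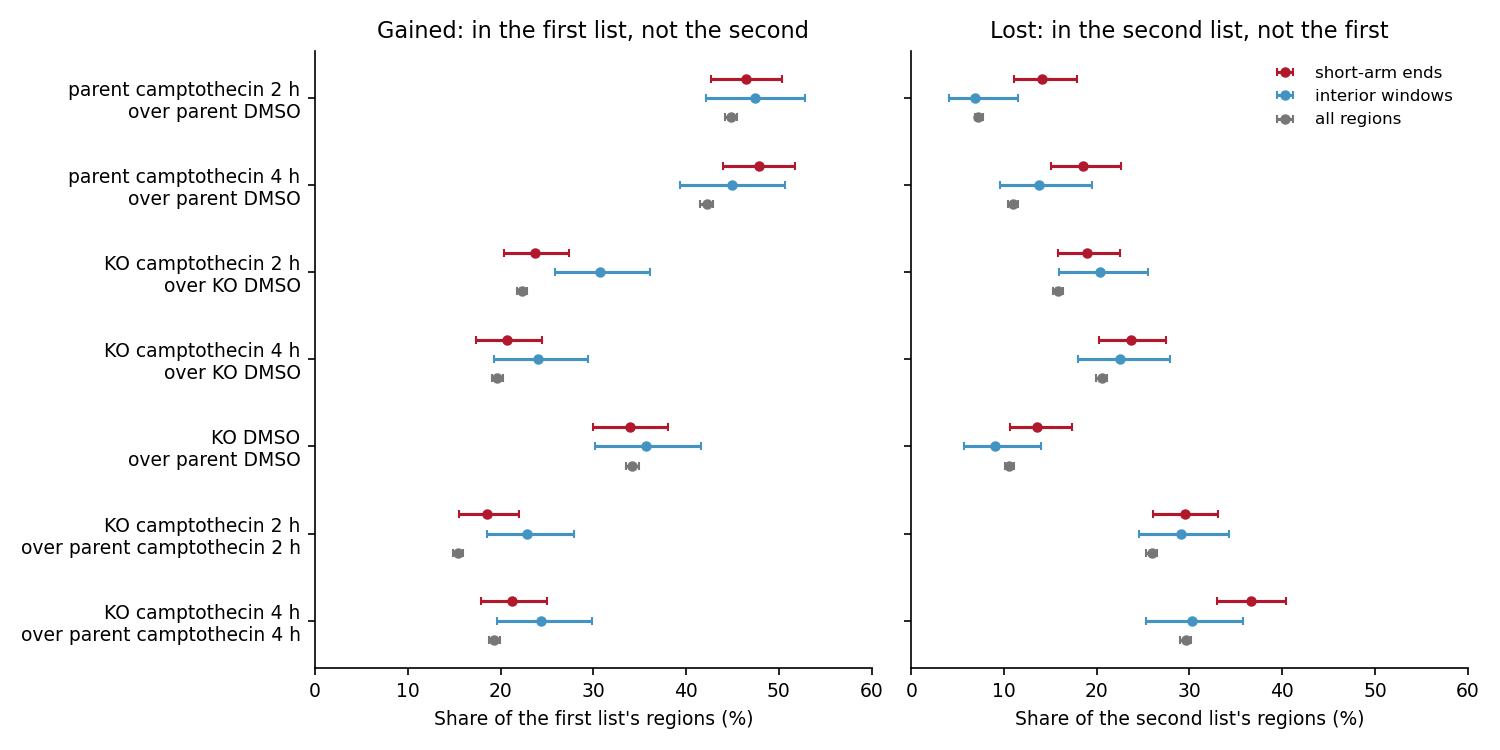
Gained regions as a share of the first list (left) and lost regions as a share of the second list (right), in percent with 95% Wilson intervals, for the 7 comparisons of knockout (KO) and parent libraries by code, at the short-arm ends (red), in the interior windows (blue) and over all regions (grey). In parent cells the lost share at 2 h is 14.1% at the ends, 6.91% in the interior windows and 7.25% over all regions.

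The lost regions were narrow and weakly enriched, at the ends as over all regions. Those missing at 2 h had a median peak width of 192 bp and a median fold of 4.66 in the DMSO list, against 374 bp and 5.56-fold for the regions shared with the 2 h list. Their median summit pileup was 12.0 reads, against 19.0 reads. Among regions of at least 300 bp, 23 of 352 were missing at 2 h (6.53%, 4.39 to 9.61%), against 3.20% (2.91 to 3.52%) over all regions of that width, and 34 of 352 at 4 h (9.66%, 6.99 to 13.2%), against 6.32% (5.91 to 6.75%). Gained regions were likewise weaker than shared ones: at 2 h they had a median fold of 4.77 and 269 bp, against 7.76-fold and 622 bp for the shared regions in the same list. Entries were also limited to a -log10 q of at least 5. The gained share at the ends was then 49.7% (247 of 497) at 2 h and 51.5% (255 of 495) at 4 h. Neither was lower than in the full lists. Over all regions the gained share was likewise no lower than in the full lists, at 49.97% and 47.5%. The lost share was 11.03% and 14.6% at the ends, against 5.26% and 8.43% over all regions.

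The balance of gains and losses differed among chromosome ends. By code, the end of chromosome 20 held 41 regions in DMSO, 86 at 2 h and 90 at 4 h, and lost 0 regions at 2 h and 1 at 4 h. As recorded, it held 86 in DMSO, 90 at 2 h and 41 at 4 h. The other values of this paragraph are by code. The end of chromosome 11 held 51 in DMSO, 102 at 2 h and 87 at 4 h, and lost 2 and 10. That of chromosome 3 held 17 in DMSO, 17 at 2 h and 14 at 4 h, and gained 0 regions at 4 h. Chromosomes 2 and 5 had the highest lost shares, with 10 of 33 regions (30.3%) and 12 of 33 (36.4%) missing at 2 h, and 16 (48.5%) and 11 (33.3%) missing at 4 h. Without chromosome 5 the lost share of all ends at 2 h was 12.1%, and without chromosome 2 it was 15.9% at 4 h, the lowest values with any 1 chromosome left out. More regions were held at 2 h than in DMSO at 11 of 12 ends and more at 4 h also at 11 of 12, chromosome 3 being the exception both times. The lost share at 2 h was higher at the end than in the interior window of the same chromosome on 9 of 12, and at 4 h on 7 of 12. In knockout cells it was higher at the end on 3 of 12 at 2 h and on 6 of 12 at 4 h. Interior windows of chromosomes 5, 9 and 11 held under 20 regions each and their values are coarse.

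**Figure D4:**
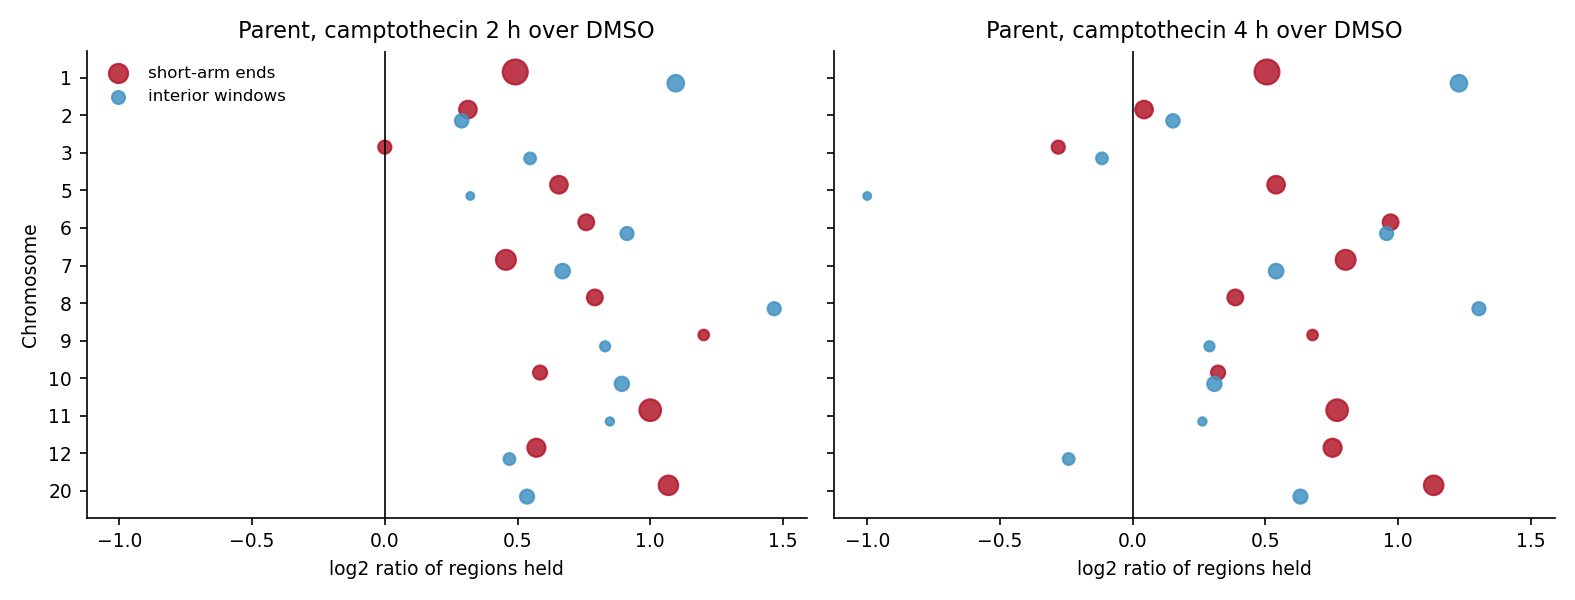
log2 ratio of regions held, camptothecin over DMSO, in parent cells at 2 h (left) and 4 h (right), by chromosome, at the short-arm ends (red) and in the interior windows (blue). Dot area grows with the number of regions in the parent DMSO list; the end of chromosome 20 lies at 1.07 and 1.13, and the end of chromosome 3 at 0.00 and -0.28.

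By distance from the end, both shares were highest in the second Mb and lowest in the fifth at both times. The gained share at 2 h was 46.4, 49.3, 46.7, 44.8 and 43.1% from the outermost to the fifth Mb, and at 4 h 50.3, 53.2, 44.3, 45.0 and 41.4%. The lost share at 2 h was 14.8, 18.2, 11.1, 13.5 and 10.9% in the same order, with 17, 16, 9, 10 and 5 regions lost, and at 4 h it was 18.3, 26.1, 16.0, 17.6 and 10.9%. Intervals of the lost share in the second and the fifth Mb overlapped, at 11.5 to 27.5% and 4.73 to 23.04% at 2 h and at 18.1 to 36.2% and 4.73 to 23.04% at 4 h.

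Both camptothecin lists of parent cells held 192 end regions that the DMSO list lacked, 20.0% of the 960 (17.6 to 22.6%), against 19.8% of all regions. Most of them were accessible somewhere in knockout cells. All 3 knockout lists held 54 (28.1%), 2 held 40, 1 held 47, and 51 (26.6%) were in no knockout list. Over all regions the corresponding shares were 31.8% in all 3 knockout lists and 22.9% in none. The knockout DMSO list held 92 of the 192. The 54 regions absent from the parent DMSO list alone made up 5.63% of end regions, against 6.28% of all regions. For any other list that number was between 5 and 12. The parent 2 h list alone gained 109 regions relative to DMSO that the 4 h list lacked (11.4%, against 12.9% of all regions), and the 4 h list alone gained 110 (11.5%, against 8.42%).

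Ranked by the lower of the 2 parent camptothecin values, the first of the 192 was chr1:1342416-1343031, 616 bp wide. It had 6.21, 6.18 and 6.73-fold in the knockout DMSO, 2 h and 4 h lists. In the parent lists it was absent in DMSO and had 10.1-fold at 2 h and 10.4-fold at 4 h, with summit pileups of 39 and 50 reads. Next came chr9:178933-179229, at 3.97, 4.22 and 3.81-fold in the knockout lists, absent in parent DMSO, and at 9.73 and 10.7-fold in parent 2 h and 4 h. On chromosome 20, chr20:290870-291346 had 6.64, 5.41 and 6.04-fold in the knockout lists and 9.50 and 9.81-fold in parent 2 h and 4 h. These 3 regions were in all knockout lists. The same arm carried chr20:2821045-2821860, at 5.21, 4.54 and 5.51-fold in the knockout lists and 11.4 and 9.01-fold in parent 2 h and 4 h. The fifth, chr1:994705-995257, had 4.31, 4.98 and 4.93-fold in the knockout lists and 8.57 and 11.4-fold in parent 2 h and 4 h.

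All 5 of these regions were held by every list except parent DMSO. They were ranked on their parent camptothecin values, so that those exceed the knockout values is favoured by the choice. Regions shared by both genotypes also had a lower median fold in knockout than in parent lists, 5.98 against 7.21 at 2 h and 5.71 against 8.10 at 4 h. Since fold enrichment is relative to a background that differs by library, the values stand side by side and are not a measured change. Within their own lists, chr1:1342416-1343031 lay at the 57.1, 56.0 and 66.9 percentile of the knockout DMSO, 2 h and 4 h lists and at the 84.8 and 79.6 percentile of the parent 2 h and 4 h lists. Among regions that both parent camptothecin lists and no other list held (51, or 5.31%, against 4.53% of all regions), a set named after its values were seen, the leading ones were chr5:784625-785405 and chr20:1946215-1946666. The first had 7.20-fold at 2 h and 6.74-fold at 4 h, with pileups of 35 and 39 reads. The second had 6.39 and 6.14-fold, with 18 and 16 reads. Chromosome 20 also held chr20:4153016-4153408 and chr20:3970045-3970490, at 6.03 and 5.51-fold in the lower of the 2 lists.

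In the opposite direction, 45 end regions were in the parent DMSO list and in neither parent camptothecin list, 4.69% of the 960 (3.52 to 6.21%), against 2.48% of all regions and 2.01% (1.097 to 3.66%) of interior regions. No knockout list held 23 of them, and 15 of the 45 were at least 300 bp wide. Leading in fold was chr5:1867389-1867546, 158 bp wide, at 7.06, 7.13 and 6.18-fold in the knockout DMSO, 2 h and 4 h lists and 7.54-fold in parent DMSO. The 3 knockout lists likewise held chr1:825008-825293, at 5.10, 6.33 and 8.11-fold, with 6.14-fold in parent DMSO, and chr5:1539922-1540251, at 4.82, 5.15 and 6.90-fold, with 6.05-fold in parent DMSO. By contrast, chr10:463802-463971 (6.71-fold, 17 reads) and chr3:903502-903642 (6.03-fold, 14 reads) were called in parent DMSO alone. The wider chr2:3319017-3319661, of 645 bp, was at 4.94 and 5.05-fold in knockout 2 h and 4 h and at 5.80-fold in parent DMSO. Under the recorded placement these 45 regions are held by the parent list at 4 h and at neither other time, and the 192 regions are missing at 4 h alone.

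**Figure D5:**
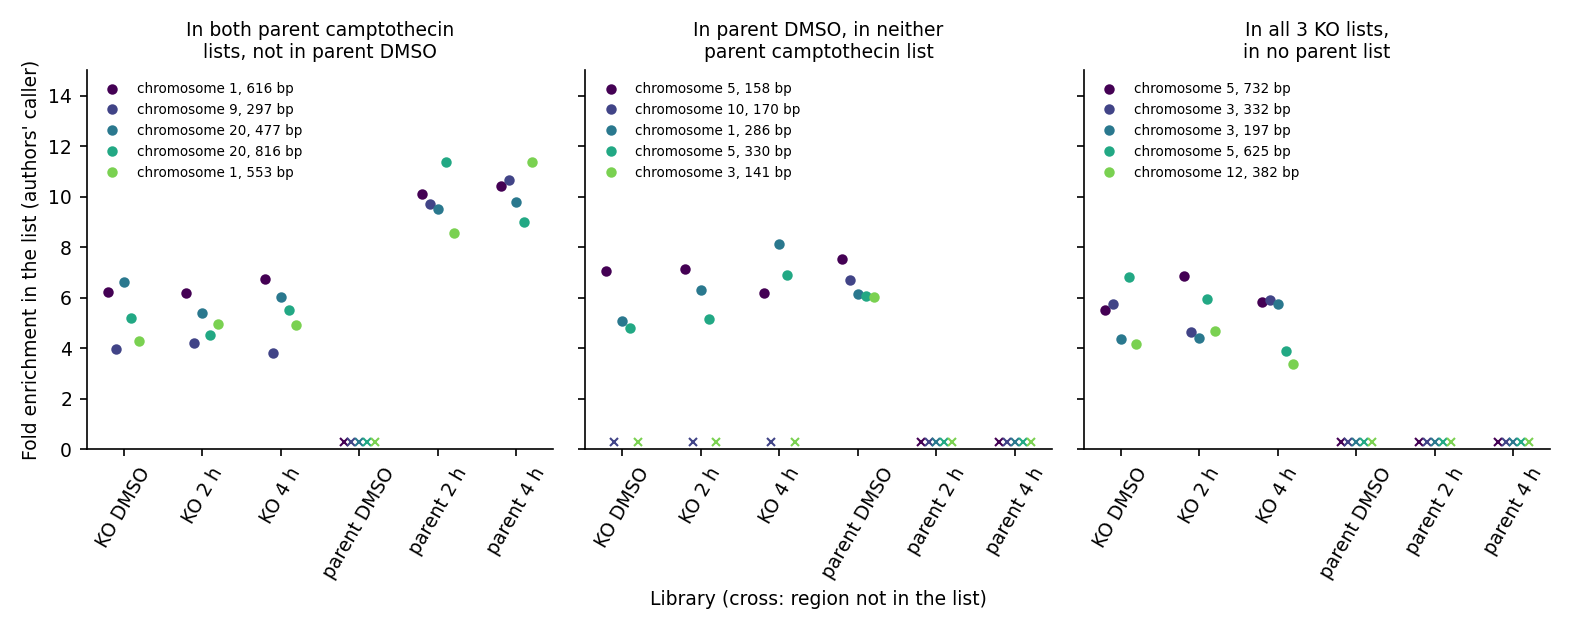
Fold enrichment, as given by the authors' peak caller, in each knockout (KO) and parent list for 5 regions in both parent camptothecin lists and not in parent DMSO (left), 5 in parent DMSO and neither parent camptothecin list (middle), and 5 in all knockout lists and no parent list (right). Crosses mark lists without the region; in the left panel, whose regions were chosen for high parent camptothecin values, knockout values run from 3.81 to 6.73 and parent 2 h and 4 h values from 8.57 to 11.4.

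In knockout cells, gains and losses at the ends were closer to balance. The 2 h list gained 133 of its 561 regions (23.7%, 20.4 to 27.4%, against 22.3% over all regions) and lacked 100 of the 528 in DMSO (18.9%, 15.8 to 22.5%, against 15.8%). The 4 h list gained 105 of 508 (20.7%, 17.4 to 24.4%, against 19.7%) and lacked 125 of 528 (23.7%, 20.3 to 27.5%, against 20.5%). Relative to DMSO, the log2 ratio of regions held came to 0.087 (0.0082 to 0.17) for the 2 h list and to -0.056 (-0.14 to 0.027) for the 4 h list. In the interior windows it was 0.20 and 0.027, with gained shares of 30.7% and 24.0% and lost shares of 20.3% and 22.6%. With equal lists the gained shares were 19.9% at 2 h and 19.8% at 4 h, against 17.3% and 19.1% over all regions. The lost shares were then 19.5% (15.9 to 23.7%) at 2 h and 24.4% (20.4 to 28.9%) at 4 h, against 17.2% and 19.2% over all regions. As recorded, the 2 h list gained 16.9% and the 4 h list 18.9%, with log2 ratios of -0.14 and -0.087. The 4 h list gained 86 regions relative to the 2 h list (16.9%, against 15.9% over all regions) and lacked 139 (24.8%, against 23.1%). In the interior windows these shares were 18.5% and 27.8%. Whether the genotypes differ in their response was not tested, as each rests on 1 library per time.

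Both camptothecin lists of knockout cells held 44 end regions that their DMSO list lacked (4.58%, against 4.89% of all regions), and 75 regions were in that DMSO list alone among the 3 (7.81%, against 6.66%). First among the 44 was chr5:4615577-4616237, at 6.86 and 6.28-fold in knockout 2 h and 4 h. Parent DMSO, 2 h and 4 h lists also held it, at 6.22, 5.84 and 6.20-fold. The second, chr12:4252119-4252483, had 7.27 and 5.93-fold in knockout 2 h and 4 h, and 6.03 and 3.52-fold in parent 2 h and 4 h. Neither parent nor knockout DMSO held it. Found only in knockout 2 h and 4 h were chr3:4887543-4887983, at 5.81 and 6.61-fold, and chr8:3349750-3350182, at 6.25 and 5.51-fold. Of the 75 missing regions, chr8:3442515-3442705 led with 7.02-fold in knockout DMSO, and chr11:355896-356423, of 528 bp, followed with 6.36-fold. Both were also in the parent 2 h and 4 h lists, at 5.95 and 4.43-fold for the first and 4.62 and 4.29-fold for the second.

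Compared with parent cells, knockout cells held more end regions in DMSO and fewer under camptothecin. In DMSO the knockout list gained 179 of its 528 regions (33.9%, 30.0 to 38.0%, against 34.2% over all regions) and lacked 55 of 404 parent regions (13.6%, 10.6 to 17.3%, against 10.6%). At 2 h it gained 104 of 561 (18.5%, 15.5 to 21.96%, against 15.4%) and lacked 191 of 648 (29.5%, 26.1 to 33.1%, against 25.9%). At 4 h it gained 108 of 508 (21.3%, 17.9 to 25.0%, against 19.3%) and lacked 231 of 631 (36.6%, 32.9 to 40.4%, against 29.6%). The log2 ratio of knockout over parent regions was 0.39 (0.29 to 0.48) in DMSO, -0.21 (-0.29 to -0.13) at 2 h and -0.31 (-0.40 to -0.22) at 4 h, against 0.44, -0.19 and -0.20 over all regions. At 4 h the ratio at the ends was below the -0.12 of the interior windows, by a difference of -0.20 (-0.35 to -0.040). The same difference was -0.11 (-0.28 to 0.049) in DMSO and -0.086 (-0.23 to 0.054) at 2 h, both with intervals that include 0. Of all such differences by code, only that at 4 h and that of parent 4 h over 2 h had intervals that exclude 0. Both use the parent 4 h list, and the intervals hold counting error alone. As recorded, the ratios and differences given for DMSO belong to 4 h, those for 2 h to DMSO and those for 4 h to 2 h. With lists of equal length the ratios at the ends were -0.051, 0.064 and -0.10 in DMSO, 2 h and 4 h by code, with ratios over all regions that the equal length itself holds near 0. In the interior windows they were then 0.11, 0.030 and 0.16. The knockout DMSO list of equal length gained 20.5% (16.8 to 24.8%) of end regions over parent DMSO, against 20.6% over all regions. It lacked 23.3% (19.4 to 27.6%), against 19.6% over all regions.

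Few end regions separated the genotypes in every list, a count that does not depend on the placement. All 3 knockout lists and no parent list held 7 regions (0.729%, 0.354 to 1.50%, against 0.715% of all regions). The widest of them, chr5:1098155-1098886, spanned 732 bp and had 5.53, 6.88 and 5.84-fold in knockout DMSO, 2 h and 4 h, with 24, 29 and 27 reads at the summit. Chromosome 5 had a second one, chr5:3323780-3324404, at 6.80, 5.97 and 3.91-fold. Its value at 4 h is the lowest of the 3, at the 10.9 percentile of that list. Chromosome 3 held chr3:3631281-3631612, at 5.73, 4.64 and 5.93-fold, and chr3:4554608-4554804, at 4.39, 4.41 and 5.77-fold. On chromosome 12, chr12:64706-65087 was the outermost region of the arm, at 4.16, 4.69 and 3.40-fold, and chr12:4938577-4939014 had 3.35, 4.72 and 3.66-fold. The last, chr1:4555810-4556201, had 4.60, 3.31 and 4.83-fold. Apart from chr5:1098155-1098886, these regions had summit pileups of 9 to 17 reads.

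Only 2 regions were in all 3 parent lists and in no knockout list (0.208%, 0.0572 to 0.756%, against 0.309% of all regions). The first, chr9:2621223-2622426, spanned 1204 bp and had 4.29, 4.84 and 4.56-fold in parent DMSO, 2 h and 4 h, on 9, 15 and 12 reads. The other, chr7:303446-303938, had 4.16, 5.61 and 6.86-fold on 11, 17 and 25 reads. In the parent DMSO list they lay at the 16.9 and 14.4 percentile. The intervals of both shares include the share over all regions.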

How the data were processed

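ATAC-seq peak lists of 6 CCRF-CEM libraries were analysed, 1 per group. The submitters' processing notes list hg19, MACS2 2.1.2, BWA 0.7.17, Picard 2.9.2, Trimmomatic 0.39, SAMtools 1.8 and Trim Galore 0.6.2. No source used here gives the read shift, extension or duplicate handling, which can move peak edges and numbers. Per list, the authors deposited a fold enrichment (a ratio over local background), a -log10 p and -log10 q, a score (10 times the -log10 q, truncated) and a summit position. Every list ends at a q of 0.01. Fold values are the authors' own and describe peaks within a list.

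Entries on chromosomes 1 to 22 and X were merged into union regions (Python 3.11.15, pandas 2.3.3, scipy 1.17.1). Summit pileup and background were recovered from fold and p under a Poisson model, within 0.01 of the deposited -log10 p for 100% of short-arm entries. The procedure was tested on simulated data, with pileups and backgrounds far below those of the most heavily covered sites named here. Read totals were not used here. Intervals of log2 ratios use the numbers gained and lost. Alternatives were the recorded placement, a -log10 q of at least 5, lists of equal length, a 50% overlap, a 2 Mb window, an interior window at 10 to 15 Mb and each chromosome left out. Regions were named by rule: the outermost held by all lists on each chromosome, the 5 widest held by all lists, the highest fold in each list, and up to 5 per gained, lost or genotype set, ranked by the lowest fold over its lists, over all widths and at 300 bp or more; others are said to be chosen later. Members and lists were chosen with earlier results of these data known.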

Additional observations from a re-analysis of the deposited data

Results flagged for a closer look

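The log2 ratio of end regions held at 4 h of camptothecin over DMSO was -0.056 in knockout cells and 0.64 in parent cells, opposite in sign with 1 library per group. Over all regions the ratios were -0.015 in knockout cells and 0.62 in parent cells, also opposite in sign. The counting interval of the knockout value at the ends, -0.14 to 0.027, includes 0. The difference between genotypes was not tested. With lists of equal length the ratios at the ends were -0.084 in knockout cells and -0.033 in parent cells, where equal length itself holds the ratio over all regions near 0.

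The log2 ratio of knockout over parent regions was 0.39 in DMSO, -0.21 at 2 h and -0.31 at 4 h, so its sign in DMSO differs from that under camptothecin. This difference was not tested either, and the ratios over all regions changed sign likewise, at 0.44, -0.19 and -0.20. The parent DMSO list, the shortest of the 6, enters the first of these values and not the other two.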

How the results depend on the processing

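No paired analysis was possible because each group has 1 library. Over 13 results, 223 alternative values were computed, of which 24 moved beyond the counting interval of the value reported. An overlap of 50%, a 2 Mb window, the interior window at 10 to 15 Mb and leaving out any 1 chromosome moved none. Most of the 223 values leave out 1 chromosome. Those keep most regions of the value reported, so their staying within its interval says little about stability. With each chromosome left out, the gained share of parent cells ranged from 45.3 to 47.9% after 2 h of drug and from 46.6 to 49.3% after 4 h, and the lost share 12.1 to 15.7% and 15.9 to 20.4%. Under the recorded placement the gained share was 19.3% for parent 2 h, 14.1% for parent 4 h and 16.9% for knockout 2 h, each over DMSO, and 18.5% for knockout over parent in DMSO and 33.9% at 4 h. The lost share of parent cells was then 21.5% at 2 h and 46.5% at 4 h, and the log2 ratio at the ends minus that of the interior windows was 0.14 for parent 2 h, 0.032 for knockout 2 h and 0.11 for knockout 4 h. With lists of equal length the gained share was 23.7% for parent 2 h, 29.9% for parent 4 h, 19.9% for knockout 2 h and 20.5% for knockout over parent in DMSO, the lost share 29.2% and 31.4% in parent cells, and the end minus interior difference 0.051 for knockout 2 h. With a -log10 q of at least 5 the gained share was 16.7% for knockout 4 h, 13.2% for knockout over parent at 2 h and 15.5% at 4 h, and the lost share in parent cells 11.03% at 2 h and 14.6% at 4 h. Among regions of at least 300 bp it was 6.53% and 9.66%. All alternatives for lost shares were chosen after seeing the data. The cause of these shifts was not tested. Read depth is unknown, and 1 library per group gives no replicate spread.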

Other observations

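The highest summit pileups at the short-arm ends were at chr1:564496-565377, a site chosen after its values were seen. They were 5135, 5824 and 5480 reads in the knockout DMSO, 2 h and 4 h libraries and 6265, 5128 and 5212 reads in the parent libraries. Local background there was 1049, 1164 and 1031 reads in the knockout libraries and 1241, 1073 and 1120 in the parent libraries, so the fold enrichment was only 4.89, 5.00 and 5.31 in the knockout lists and 5.04, 4.78 and 4.65 in the parent lists. At chr5:10032-11783, next to the start of chromosome 5, pileups were 444, 480 and 370 reads in the knockout libraries and 613, 748 and 997 reads in the parent libraries, at nearly the same fold in all lists. Near chr1:564496-565377, all 6 lists also held chr1:566072-566749, chr1:567268-567668, chr1:567890-568176 and chr1:569131-570274. Their pileups ran from 2692 reads (parent 4 h, chr1:567890-568176) to 6065 reads (parent DMSO, chr1:566072-566749). Another neighbour, chr1:565717-565857, was missing from the parent 4 h list alone. All these regions count in the density of the outermost Mb. Whether reads from repeated sequence collect at these sites was not tested.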
